A study of Mus musculus with 5 samples.

Results

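The genes described here are those of fibroblast growth factor (FGF) signalling, namely the ligands, receptors, receptor partners, adaptors, feedback inhibitors and 2 ETS transcription factors that act as pathway targets. They were taken as every non-control probe set that the array platform's annotation assigns to exactly 1 symbol on a list of 39 genes. Of these, 38 had such a probe set, out of 18193 genes named in the same way on the whole array, and together they had 90 probe sets. Frs2, an adaptor of the FGF receptors, had no probe set with a single symbol, and its signal was not analysed here.

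The arrays cover 5 lines derived from Neuro2A cells, which come from a mouse neuroblastoma, and each line has 1 Affymetrix array. The control group held 3 lines. These were the parental cells, cells that carried an empty vector, and cells that carried a knockdown vector aimed at EGFP, a fluorescent protein. The other group held 2 stable lines, called line 1 and line 2 below, each with a different vector against KDM7. KDM7 is a histone demethylase encoded by Kdm7a, and the study's stated question was how it affects gene expression. The labels do not say whether a line was a single clone or how many cultures were taken, so errors and p-values below measure only the spread between these 5 arrays. The number of arrays limits the precision of every value.

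FGFs are secreted proteins that bind receptor tyrosine kinases together with heparan sulfate. The activated receptors signal through FRS adaptors, RAS and the ERK kinases to transcription factors that include Etv4 and Etv5. The same pathway switches on its own inhibitors, among them the Sprouty proteins and the ERK phosphatase Dusp6. In the embryo FGFs act in neural induction and in patterning of the brain. A separate branch of the family, the FGF homologous factors, stays inside the cell and binds voltage-gated sodium channels.

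Signal is the deposited MAS5 intensity of a probe set on a linear scale. It has no detection call here, so a low signal was not shown to be above background. A probe set was tested if its mean log2 signal over the 5 arrays was at or above the median of all probe sets, which is a signal of 40.5. This left 22519 probe sets, of which 33 belonged to 18 of the FGF pathway genes. Log2 changes are the 2 knockdown lines minus the 3 control lines, with the standard error (SE) from limma. Adjusted p-values are Benjamini-Hochberg values from limma over all 22519 probe sets, with a threshold of 0.05. A probe set name that ends in _s_at or _x_at may also detect other transcripts. Most genes of the group have several probe sets, and the one of highest mean signal is given first. Control values always stand in the order parental, empty vector, EGFP knockdown.

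All 3 tested probe sets of the targeted gene had both knockdown lines under all controls, and 1 of them passed. Its brightest, Kdm7a 1435867_at, had signals of 659.5, 648 and 872 in the control lines and of 231 and 143 in lines 1 and 2. Its log2 change was -1.99 (SE 0.25), and its adjusted p in limma was 0.128. The one that passed, 1456150_at, was picked after its values were seen and had 487, 611 and 665 against 130 and 136. Its log2 change was -2.13 (SE 0.20), and its adjusted p in limma was 0.0468. That call was lost in limma without the trend and robust options (adjusted p = 0.722) and when the array of the empty vector (0.0902), EGFP knockdown (0.659), line 1 (0.230) or line 2 (0.449) was left out. Of 14 genes that mark sympathoadrenal and neuronal cells, 12 had a probe set and 11 of these were bright enough to be tested, including Hand2 at 10162 to 13084 and Phox2a at 2444 to 3789. Th, the first enzyme of catecholamine synthesis, was not among them, at 22.1 to 68.6. Of the 20 tested probe sets of these markers, 7 (35%) were lower in both knockdown lines than in all controls and 1 (5%) was higher, against 10.2% and 12.6% of all tested probe sets. In limma 0 passed, and 9 (45%) had an unadjusted p under 0.05, 8 of them lower, against 4.96% of all tested probe sets. Their summed signal was 52721 to 58663 in the control lines, 54662 in line 1 and 60309 in line 2. Of the marker genes of other cells, 2 of 8 for fibroblasts, 1 of 5 for Schwann cells and glia and 1 of 6 for blood cells were tested. Their summed signals on the 5 arrays were 181 to 251, 173 to 497 and 280 to 533, and the part of any of these markers in the FGF results was not tested.

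No gene of the FGF group passed the test between knockdown and control lines. Of its 33 tested probe sets, 0 passed upward and 0 downward in limma, against 0.00888% of all probe sets. An unadjusted p under 0.05 was found in limma for 4, namely Dusp6 and Spry2 on the lower side and 2 probe sets of Spred1 on the higher side. That is 12.1% of the 33, against 4.96% of all tested probe sets (2.38% on the lower and 2.58% on the higher side). Without the trend and robust options of limma's variance model the count past the threshold was again 0.

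Of the 33 probe sets, 5 had both knockdown lines under all 3 controls and 5 had both over them, or 15.2% each way. Over all tested probe sets these shares were 10.2% below and 12.6% above. The lower ones were of Dusp6, Spry2, Spry4, Fgfrl1 and Etv5, and the higher ones were 3 of Spred1, 1 of Fgfr1 and 1 of Fgfr2. After centring each array on its median, which moved all changes by -0.11, the split was 7 below and 3 above. With fewer arrays the counts were larger, at 8 below without the parental line, 8 without the empty vector line and 12 without line 2. The counts above were 8 without the empty vector line, 8 without the EGFP knockdown line, 11 without line 1 and 8 without line 2. Leaving out an array makes separate groups more likely for any probe set. The share over all tested probe sets was not computed with an array left out or after median centring. These altered counts therefore cannot be set against a background. The median log2 change over the 18 genes was 0.0038, against 0.029 over all tested probe sets, and it was -0.14 without the parental line.

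The feedback inhibitors had the most tested probe sets of the group. All 6 of these genes had a tested probe set, 16 in all, and they lay on both sides of the control lines. By the brightest probe set of each gene, Dusp6, Spry2 and Spry4 were lower in both knockdown lines and Spred1 was higher. On the same basis Spry1 and Spred2 overlapped with the controls. Some dimmer probe sets of Spry2, Spry4 and Spred1 overlapped too. None of these differences passed the test.

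The promoters of the 3 feedback genes with an unadjusted p under 0.05 are shown from RefSeq on build GRCm38.p6, since these genes differed in direction. Each runs from 250 bases before to 50 bases after the annotated start, 5′ to 3′ on the gene's strand, with CCGGAA, a core bound by ETS factors, in capitals where it occurs on either strand.
Spry2 (chr14:105896770-105897069, - strand): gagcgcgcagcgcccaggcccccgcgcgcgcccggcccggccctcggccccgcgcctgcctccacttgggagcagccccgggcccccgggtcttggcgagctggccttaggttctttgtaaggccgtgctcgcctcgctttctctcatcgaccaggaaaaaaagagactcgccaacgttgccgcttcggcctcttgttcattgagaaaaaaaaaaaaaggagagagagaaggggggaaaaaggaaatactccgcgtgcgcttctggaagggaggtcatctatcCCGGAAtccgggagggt
Dusp6 (chr10:99262981-99263280, + strand): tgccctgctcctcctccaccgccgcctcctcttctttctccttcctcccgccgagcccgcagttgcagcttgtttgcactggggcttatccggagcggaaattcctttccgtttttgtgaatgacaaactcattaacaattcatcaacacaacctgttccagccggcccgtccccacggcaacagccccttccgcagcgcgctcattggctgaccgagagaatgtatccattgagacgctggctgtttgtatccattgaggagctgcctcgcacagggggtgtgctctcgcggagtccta
Spred1 (chr2:117120821-117121120, + strand): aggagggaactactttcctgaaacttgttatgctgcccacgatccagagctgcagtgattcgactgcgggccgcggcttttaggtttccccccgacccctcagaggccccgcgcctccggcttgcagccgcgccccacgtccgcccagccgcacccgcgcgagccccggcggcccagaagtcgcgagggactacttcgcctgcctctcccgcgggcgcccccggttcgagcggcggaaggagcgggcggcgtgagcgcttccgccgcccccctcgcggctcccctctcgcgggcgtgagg
The motif was found 1 time in the Spry2 sequence, from base 284 on, which is after the start site, and 0 times in those of Dusp6 and Spred1. It is in 14.9% of the 32851 promoters of the table and in 7 of 38 promoters (18.4%) from 30 of the 39 listed genes. Frs2, which had no probe set with a single symbol, is among those with the motif. A match is a description of the sequence, and no binding was measured. The Spred1 promoter was 72.3% G and C, that of Spry2 62.7% and that of Dusp6 57.3%, against a median of 52.7% over all promoters.

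Dusp6 encodes a cytoplasmic phosphatase that inactivates ERK. Its only probe set, 1415834_at, had signals of 2586, 2977 and 3160 in the control lines, 1703 in line 1 and 2347 in line 2. All control lines were above both knockdown lines, and line 2 was 1.10-fold below the lowest control. The controls averaged 2908 ± 293 (SD, n = 3) and the knockdown lines 2025 ± 455 (SD, n = 2), a 1.45-fold difference between the mean log2 values. The log2 change was -0.54 (SE 0.17, 95% interval -0.92 to -0.15), with an adjusted p of 0.916 in limma. Line 1 against the controls had -0.77 and line 2 had -0.30, each with an SE of 0.21 and with the same control arrays.

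The Sprouty proteins restrain signalling from receptor tyrosine kinases to ERK. Spry2 1436584_at had signals of 536, 477 and 481 in the control lines and of 370 and 350 in lines 1 and 2. The groups did not overlap, and the nearest values were 1.29-fold apart. This was the widest such gap among the 6 genes that were separated by their brightest probe set. The share of genes separated in this way over the whole array was not computed. The log2 change of Spry2 1436584_at was -0.47 (SE 0.17, 95% interval -0.86 to -0.08), with an adjusted p of 0.916 in limma. The dimmer Spry2 1421656_at had a log2 change of -0.42 (SE 0.40), with line 2 at 66.3 inside the control range of 50.4 to 84.6 and line 1 below it at 39.7.

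Spry4 1445669_at had signals of 109, 143 and 112 in the control lines and of 97.8 and 88.2 in lines 1 and 2. Both knockdown lines were below all controls, by 1.11-fold at the nearest values (log2 change -0.37, SE 0.27). A second Spry4 probe set, 1440867_at, had -0.17 (SE 0.33) with overlapping groups. By the brightest probe sets, Spry1 differed from Spry2 and Spry4 in that it was lowest in the parental line. The same was true of Spred1 and Spred2. Spry1 1415874_at had signals of 297, 546 and 536 in the control lines and of 417 and 518 in lines 1 and 2. Its log2 change was 0.07 (SE 0.28), which turned to -0.040 after median centring and to -0.22 without the parental line.

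Spred1 and Spred2 are Sprouty-related membrane proteins that block the activation of RAF. Spred1 1423160_at had signals of 1227, 1529 and 1361 in the control lines and of 1696 and 1876 in lines 1 and 2. Both knockdown lines were above all controls, by 1.11-fold at the nearest values. The controls averaged 1372 ± 151 (SD, n = 3) and the knockdown lines 1786 ± 127 (SD, n = 2). This is a log2 change of 0.38 (SE 0.15, 95% interval 0.04 to 0.73), with an adjusted p of 0.916 in limma. The 6 tested Spred1 probe sets had log2 changes from 0.33 (1452911_at) to 0.41 (1423162_s_at), and the groups did not overlap for 3 of them. These probe sets read the same 5 RNA samples and are no replicates of each other.

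Spred2 1434403_at had signals of 2398, 2883 and 3038 in the control lines and of 2960 and 3254 in lines 1 and 2. Line 1 was within the control range and line 2 above it, with a log2 change of 0.17 (SE 0.14). Its dimmer probe sets 1436892_at, 1441415_at and 1441802_at had 0.10, 0.52 and 0.78, with SEs of 0.27, 0.42 and 0.59. The last of these ranged from 21.3 in the parental line to 89.1 in the EGFP knockdown line, which was above both knockdown lines. It passed the brightness filter only through the knockdown lines, since its geometric mean was 40.4 in the control lines.

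**Figure D1:**
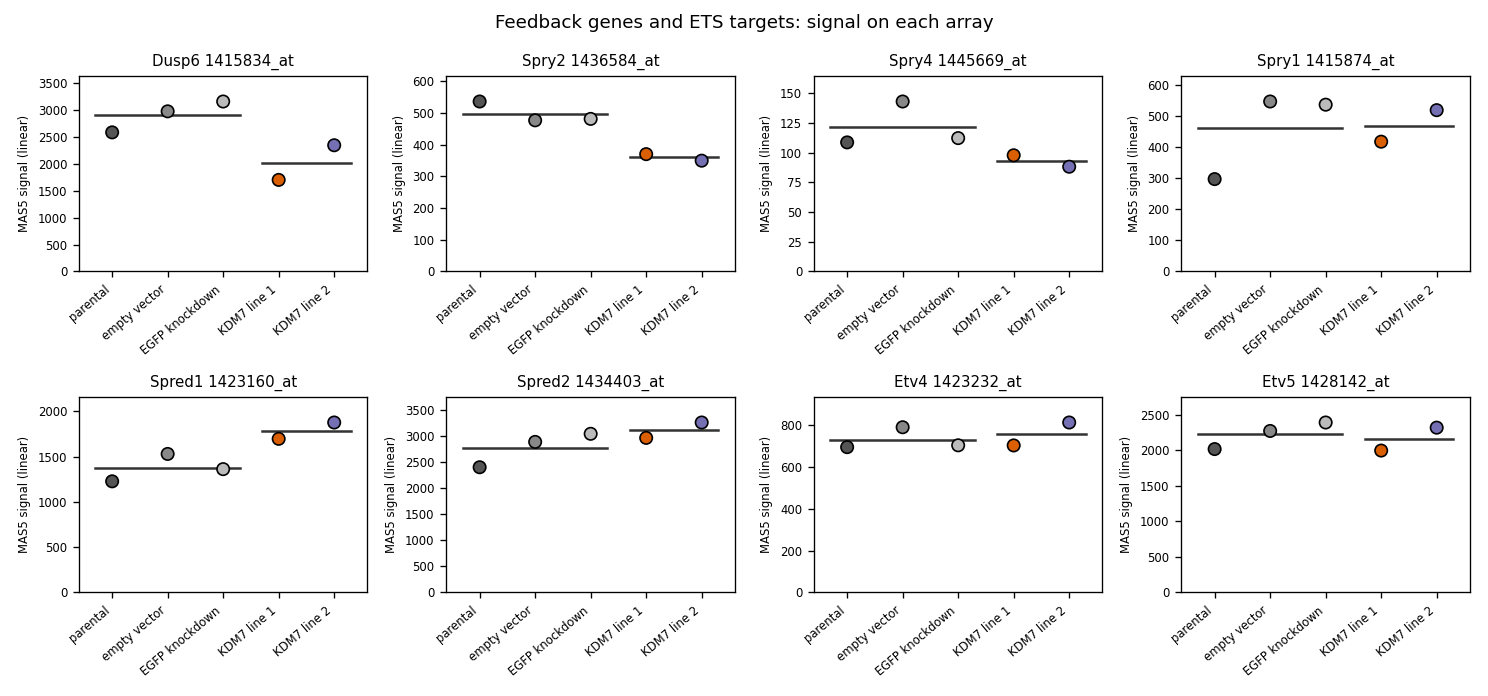
MAS5 signal (linear, from 0) of the brightest probe set of 6 feedback inhibitors and of the ETS targets Etv4 and Etv5, with 1 point per array in the 3 control lines (grey) and KDM7 knockdown lines 1 (orange) and 2 (purple), and a line at each group's mean. Dusp6, Spry2 and Spry4 have both knockdown points under all control points, Spred1 has both above them, and Etv4 and Etv5 overlap.

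Etv4 and Etv5 are ETS transcription factors of the PEA3 group that FGF signalling commonly induces. Etv4 1423232_at had signals of 694, 789 and 703 in the control lines and of 702 and 812 in lines 1 and 2. Etv5 1428142_at had 2019, 2273 and 2393 in the control lines and 1998 and 2320 in lines 1 and 2. For both genes line 1 had about the level of the parental line, and line 2 was 0.21 (SE 0.30) and 0.22 (SE 0.26) higher than line 1 on the log2 scale. The log2 changes were 0.05 (SE 0.16, 95% interval -0.32 to 0.42) for Etv4 and -0.05 (SE 0.14, 95% interval -0.37 to 0.28) for Etv5. The first turned to -0.056 after median centring and the second to 0.0071 without the EGFP knockdown line, so neither has a settled direction.

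The dimmer probe sets did not settle it either. Etv4 1443381_at had a log2 change of 0.32 (SE 0.35). Etv5 1450082_s_at had -0.14 (SE 0.17) and 1420998_at -0.22 (SE 0.21). The groups of 1450082_s_at did not overlap, but its lowest control value of 398 and its highest knockdown value of 396 were close to each other.

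**Figure D2:**
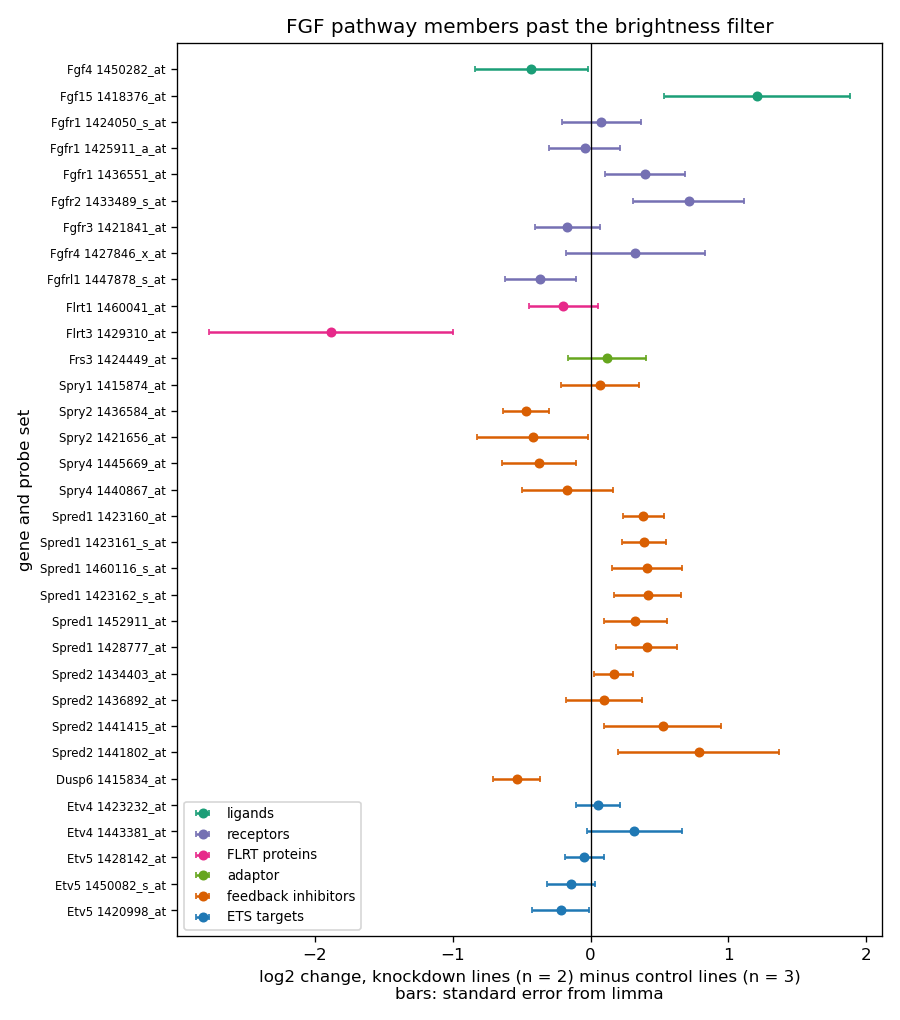
Log2 change of the 33 tested probe sets, knockdown lines (n = 2) minus control lines (n = 3), with the standard error from limma as bars and colours for the role of the gene. The 6 Spred1 probe sets lie to the right of 0 and those of Dusp6, Spry2 and Spry4 to the left, while Flrt3 at -1.88 and Fgf15 at 1.21 have the longest bars.

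Among the receptors, Fgfr1 to Fgfr4 and Fgfrl1 were tested, with 7 probe sets, and 0 passed. Fgfr1 is a main receptor of neural cells. Fgfr1 1424050_s_at had signals of 793, 432 and 403 in the control lines and of 531 and 560 in lines 1 and 2. The parental line stood above all transfected lines, and the knockdown lines lay between it and the other controls. The log2 change was 0.08 (SE 0.29), with 0.39 without the parental line, -0.051 without the empty vector line and -0.10 without the EGFP knockdown line.

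The other Fgfr1 probe sets showed no such excess in the parental line. Fgfr1 1425911_a_at had signals from 102 to 124 on the 5 arrays and a log2 change of -0.04 (SE 0.26). Fgfr1 1436551_at was lowest in the parental line, with 72.4, 88.4 and 100.4 in the control lines and 104 and 124 in lines 1 and 2 (log2 change 0.40, SE 0.29). The 3 probe sets of Fgfr1 thus differed in the order of the lines.

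Fgfr2 was near the lower limit of the brightness filter. Fgfr2 1433489_s_at had signals of 45.6, 31.5 and 31.0 in the control lines and of 52.9 and 63.7 in lines 1 and 2. Both knockdown lines were above all controls, by 1.16-fold at the nearest values, with a log2 change of 0.71 (SE 0.40, 95% interval -0.21 to 1.63) and an adjusted p of 0.916 in limma. After 32 was added to each signal as an offset, the log2 change was 0.41. The probe set passed the brightness filter only through the knockdown lines, since its geometric mean was 35.4 in the control lines and 58.1 in the knockdown lines. Its place among the 5 probe sets above all controls therefore depends on the filter. The other Fgfr2 probe sets were too dim to be tested. Of these, 1420847_a_at had 23.5, 15.2 and 24.6 in the control lines and 27.6 and 30.6 in lines 1 and 2, and 1443211_at had 4.39, 1.20 and 1.31 against 7.42 and 4.03, with overlapping groups.

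Fgfr3 1421841_at had signals of 157, 155 and 152 in the control lines, 122 in line 1 and 155 in line 2. Line 1 alone was outside the narrow control range, and the log2 change was -0.17 (SE 0.24). Fgfr4 1427846_x_at had signals of 24.9, 42.6 and 63.1 in the control lines and of 39.0 and 66.4 in lines 1 and 2, so its groups overlapped. Its log2 change was 0.33 (SE 0.50), and -0.027 without the parental line.

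Fgfrl1 encodes a receptor-like protein without a tyrosine kinase domain. Fgfrl1 1447878_s_at had signals of 134, 133 and 180 in the control lines and of 107 and 122 in lines 1 and 2. Both knockdown lines were below all controls, by 1.08-fold at the nearest values (log2 change -0.36, SE 0.26). Klb, the co-receptor beta-Klotho of endocrine FGFs, had 2 probe sets, and neither was bright enough to be tested.

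The FLRT proteins are membrane proteins with leucine-rich repeats, and Flrt3 binds FGF receptors and promotes their signalling. Flrt3 had the widest range of all tested genes of the group. Flrt3 1429310_at had a signal of 235 in the parental line, 22.4 in the empty vector line, 106 in the EGFP knockdown line and 23.0 and 21.7 in lines 1 and 2, a range of 10.8-fold. The empty vector line was as low as both knockdown lines, while the other controls were high. A range of at least 4-fold over the 5 arrays was found for 3.14% of all tested probe sets. In the FGF group Fgf15 1418376_at (7.42-fold) and Spred2 1441802_at (4.18-fold) reached it as well.

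The second Flrt3 probe set, 1453102_at, was too dim on average to be tested and had the same split between lines. Its signals were 169 and 81.6 in the parental and EGFP knockdown lines, 9.31 in the empty vector line and 2.83 and 18.3 in lines 1 and 2. Flrt3 1429310_at passed the brightness filter only through the parental and EGFP knockdown lines, and its 3 low values were under 40.5. Its log2 change of -1.88 (SE 0.88, 95% interval -3.94 to 0.18, adjusted p = 0.916 in limma) was -1.12 without the parental line, -2.82 without the empty vector line and -1.21 with the offset of 32. Since a control line had the knockdown level, the groups overlapped. Among the neuronal markers, Isl1 1450723_at was also high in the parental (1493) and EGFP knockdown (1998) lines and lower in the empty vector line (545) and lines 1 and 2 (316 and 466). Gata3 1448886_at had the same split, with 554, 224 and 585 in the control lines and 178 and 95.3 in lines 1 and 2. These markers were picked after their values were seen, and others did not follow them. Gata2 1450333_a_at was highest in the empty vector line (2189), and Chgb 1415885_at was highest in lines 1 and 2 (13086 and 17193). The part of these markers in the Flrt3 values was not tested.

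Flrt1 1460041_at had signals of 148, 193 and 196 in the control lines and of 136 and 176 in lines 1 and 2 (log2 change -0.20, SE 0.25), and Flrt2 was not bright enough to be tested. Frs3, an adaptor that links FGF receptors to RAS, had signals of 125, 187 and 211 in the control lines and of 164 and 209 in lines 1 and 2 by 1424449_at (log2 change 0.12, SE 0.28). Both genes overlapped between the groups, and the change of Frs3 was -0.10 without the parental line.

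The ligands were mostly dim on these arrays. Of 13 secreted ligands that act locally only Fgf4 was tested, and of 3 endocrine ligands only Fgf15. The ligands below the filter were Fgf1, Fgf2, Fgf3, Fgf5, Fgf7, Fgf8, Fgf9, Fgf10, Fgf17, Fgf18, Fgf20, Fgf22, Fgf21 and Fgf23. The untested probe sets of the local ligands had single signals from 0.49 to 69.0, the highest being Fgf17 1421523_at in the EGFP knockdown line. The 4 FGF homologous factors Fgf11, Fgf12, Fgf13 and Fgf14 had 11 probe sets with signals from 0.59 to 42.3, none of them tested.

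Fgf15, the mouse counterpart of human FGF19, is made in the embryonic brain and the gut. Fgf15 1418376_at had signals of 37.1, 25.9 and 49.4 in the control lines, 192 in line 1 and 36.3 in line 2. Line 1 was 3.89-fold above the highest of the other arrays, and line 2 was within the control range. The probe set passed the brightness filter only through line 1. The log2 change was 1.21 (SE 0.68), with an adjusted p of 0.916 in limma, and only 0.0044 without line 1. Line 1 against the controls had 2.41 and line 2 had 0.0044 on the log2 scale, each with an SE of 0.56.

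Fgf4, a ligand of early embryonic cells, was lowest in line 1. Fgf4 1450282_at had signals of 61.7, 105 and 75.8 in the control lines, 41.6 in line 1 and 82.4 in line 2. Line 2 was within the control range, and the log2 change of -0.43 (SE 0.41) turned to 0.063 without line 1. The 3 other probe sets of Fgf4 were too dim to be tested.

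**Figure D3:**
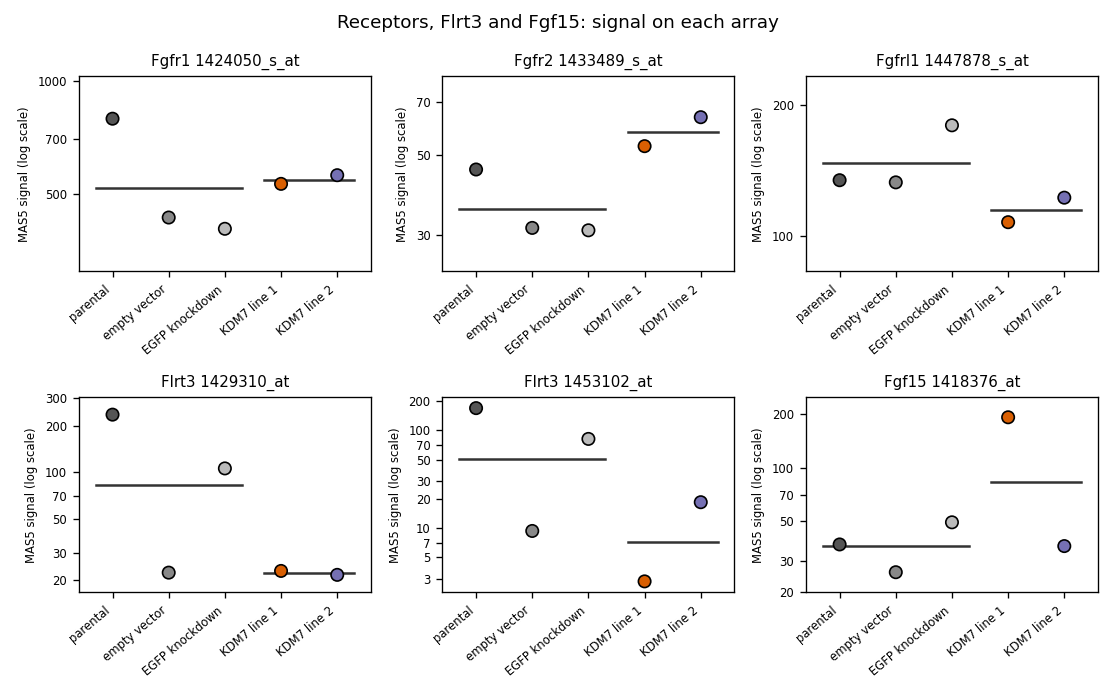
MAS5 signal (log scale, own axis range in each panel) of Fgfr1, Fgfr2, Fgfrl1, both Flrt3 probe sets and Fgf15, with 1 point per array in the 3 control lines (grey) and KDM7 knockdown lines 1 (orange) and 2 (purple), and a line at each group's geometric mean. The empty vector line lies with the knockdown lines for Flrt3, and line 1 alone is high for Fgf15, at 192.

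Between the knockdown lines themselves 0 of the 33 probe sets passed in limma, against 0.00444% of all tested probe sets, with each line assumed to vary like the controls. Line 2 and line 1 were at least 2-fold apart for 1 probe set, that of Fgf15, which is 3.03% of the 33 against 3.08% of all. Fgf15 was lower in line 2 by 2.40 on the log2 scale (log2 difference -2.40, SE 0.69), and its adjusted p in limma was 1.00. It was also the 1 probe set with an unadjusted p under 0.05 in limma, which 1.51% of all had. Since Fgf15 passed the brightness filter only through line 1, both counts depend on the line in which it was high. By the brightest probe set of each gene, Fgf4 followed with 0.98 (SE 0.60), Fgfr4 with 0.77 (SE 0.79) and Dusp6 with 0.46 (SE 0.26), all higher in line 2. On the same basis Spry2 had -0.08 (SE 0.32) and Spred1 0.15 (SE 0.28). Dimmer probe sets of these genes differed more, with 0.74 (SE 0.63) for Spry2 1421656_at, 0.51 (SE 0.40) for Spred1 1460116_s_at and -0.52 (SE 0.39) for Spred1 1423162_s_at. Dimmer probe sets of Spred2 (1436892_at, -0.74, SE 0.39) and Etv4 (1443381_at, 0.71, SE 0.54) were also further apart than Dusp6.

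Across all 5 lines, the parental line was the highest or the lowest for 20 of the 33 probe sets, or 60.6%, against 54.6% of all tested probe sets. It was the lowest for 14 of them, including Spry1, Frs3 and Spred1, and the highest for 6, including Fgfr1 and Flrt3. The empty vector line was at an end for 18.2%, against 37.5% of all. The EGFP knockdown line was at an end for 39.4% (42% of all), line 1 for 36.4% (31.3% of all) and line 2 for 45.5% (34.7% of all).

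Of 60 other genes of the pathway, 53 had a probe set with a single symbol and 39 were tested, with 84 probe sets. In limma 0 passed upward and 0 downward. An unadjusted p under 0.05 was found for 10, or 11.9%, with 8 lower and 2 higher, against 4.96% of all tested probe sets. In 17.9% of the 84 both knockdown lines were under all controls, against 10.2% of all, and in 10.7% both were over them, against 12.6% of all. By subject, the RAS to ERK cascade had 3 of 42 probe sets at an unadjusted p under 0.05 in limma, or 7.14%. Further feedback and target genes had 3 of 17, or 17.6%, and heparan sulfate carriers and enzymes 4 of 25, or 16%. Araf, Ccnd1 and Sdc3 each entered these counts with more than 1 probe set, those of Sdc3 with opposite signs. The shares are thus of probe sets and not of genes.

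Fos, an immediate early transcription factor that ERK signalling induces, had the largest change of these genes by brightest probe set, among those whose groups did not overlap. Fos 1423100_at had signals of 620, 733 and 445 in the control lines and of 320 and 318 in lines 1 and 2 (log2 change -0.88, SE 0.23), and its adjusted p in limma was 0.916. Of the 12 tested further feedback and target genes, 5 had a log2 change over 0 and 7 under 0. Over all tested probe sets 45.2% were under 0. Among these 12 genes Dusp5 had -0.62 (SE 0.28), Junb -0.07 (SE 0.25) and Egr1 0.09 (SE 0.67), with overlapping groups. Ier2 had 0.16 (SE 0.13), with both knockdown lines above all controls. Gpc1, a glypican that carries heparan sulfate at the cell surface, had 749, 1050.3 and 868 in the control lines and 577 and 561 in lines 1 and 2 (log2 change -0.63, SE 0.18). Araf, a RAF kinase, had -0.59 (SE 0.20) by 1435566_s_at and -0.74 by 1428607_at, with -0.11 to -0.15 by its 3 other tested probe sets.

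Sdc3, a syndecan, cannot be given a direction, since its probe sets differed: 1450027_at was at -0.74 (SE 0.27) and the dimmer 1420853_at at 1.36 (SE 0.47). On the higher side were Shc1, an adaptor (0.44, SE 0.26, and 0.17 without the parental line), and Ext2 and Ndst2, enzymes of heparan sulfate synthesis (0.42, SE 0.20, and 0.33, SE 0.21). Braf had 0.30 (SE 0.17) by its brightest probe set, and its 6 others ranged from -0.26 (1425693_at) to 0.67 (1458641_at). Ccnd1, the cyclin of the early G1 phase, was picked out after its values were seen. For all 3 Ccnd1 probe sets both knockdown lines were under all controls, with log2 changes of -0.20 (SE 0.09), -0.44 (SE 0.11) and -0.25 (SE 0.11). The second of them, 1417419_at, had signals of 4510, 4367 and 4451 in the control lines and of 3387 and 3146 in lines 1 and 2, and an adjusted p of 0.916 in limma.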

How the data were processed

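RNA from 5 Neuro2A lines was labelled as biotin cRNA and read on 1 Affymetrix array each, per the labels. The deposited values are linear signal intensities that the authors computed in MAS5, per the submitters' processing notes. The sources used here do not give the version of MAS5. These intensities have a 2% trimmed mean of 500.0 on each array, so no further scaling was applied. Of 45101 probe sets, 64 AFFX controls were left out, 34945 had 1 symbol in the platform annotation, 932 several and 9160 none. All 38 genes of the group were found by gene number in a RefSeq table of GRCm38.p6, with 0 changed symbols.

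Values were taken to log2 without an offset and fitted in R 4.3.3 by limma 3.58.1, using lmFit and an eBayes step with the trend and robust options, the knockdown lines against the control lines, with Benjamini-Hochberg adjustment over all probe sets at or above the median. Each knockdown line and their difference came from a fit with 3 groups. The fit was tested on simulated data with independent normal noise, where it called somewhat more unchanged probe sets than its threshold allows. Its p-values may therefore be on the small side, but the simulation does not settle this for these arrays. Here an unadjusted p under 0.05 in limma was found for 4.96% of tested probe sets between knockdown and control lines. Between line 2 and line 1 the share was 1.51%.

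The genes, lists and tests were chosen with earlier results of these data known. Described gene by gene were the receptors, feedback inhibitors and ETS targets, and other members with a change of at least 0.5 and separate groups, a line difference of at least 1 or a range of at least 2, all in log2. Fgf4, Flrt1 and Frs3 were added so that all tested genes are covered. Of the other pathway genes the rule took up to 8 with the largest change and separate groups. Dusp5, Junb, Egr1, Ier2 and Ccnd1 were described outside this rule, while other tested genes of their list were not. Alternatives were quantile normalization, median centring, other brightness filters, an offset of 32, no trend and robust, an adjusted p under 0.10, the mean over probe sets, and leaving out each array.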

Additional observations from a re-analysis of the deposited data

How the results depend on the processing

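In no alternative did a tested probe set of the FGF group or of the other pathway genes pass the threshold in limma. Of 31 single-gene results, 23 kept their sign throughout, and the lowest adjusted p in limma was 0.332. After median centring the log2 changes of Fgfr1 (-0.032), Spry1 (-0.040) and Etv4 (-0.056) were negative, and 3 probe sets had both knockdown lines above every control line. With no brightness filter, which takes in all 90 probe sets of the group, 11 lay above and 8 below. With the filter at the 70th percentile, which leaves fewer probe sets than the main filter, it was 2 above and 3 below. No share over all probe sets was computed for any alternative, including those with an array left out. Counts from different filters are thus not comparable with each other. Probe sets at least 2-fold apart between the knockdown lines numbered 2 after quantile normalization and 2 after median centring. They numbered 32 of the 90 with no filter and 0 with the stricter one. The median log2 change was -0.13 with no filter. The Kdm7a probe set that passed kept its log2 change of -2.13 but not its call in limma without trend and robust (adjusted p = 0.722). The brightest Kdm7a probe set passed in none of the alternatives at the 0.05 threshold.

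Leaving out each array in turn gave 6 to 12 probe sets below, 6 to 11 above, a median from -0.14 to 0.063 and -2.26 to -2.04 for the Kdm7a probe set that passed, which held its call without the parental line (adjusted p = 0.0365 in limma) and lost it without any other array (0.0902 to 0.659). Over these the log2 change ran from -0.058 to 0.71 for Fgfr4, -0.10 to 0.30 for Frs3, -0.22 to 0.23 for Spry1, -0.10 to 0.39 for Fgfr1, -0.15 to 0.062 for Etv5, -0.92 to 0.063 for Fgf4, -0.34 to 0.0047 for Fgfr3 and -0.051 to 0.16 for Etv4. The cause of these shifts was not tested. Without a knockdown line the lines cannot be compared. No paired analysis was possible because the labels give the lines no shared numbers. Signals under 40.5 were not shown to be above background, which limits Flrt3, Fgf15, Fgfr2 and Fgfr4 most.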
